A study of Mus musculus with 16 samples.

Results

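Loss of Runx1 in the somatic cells of the gonad was examined in newborn (P0) mouse ovaries by setting 4 Runx1 KO arrays against 4 control arrays, out of 16 arrays in the series, with 1 ovary on each array. Control ovaries were Runx1+/f, Foxl2+/+ and had no Sf1-cre transgene (Sf1-cre+/+). Runx1 KO ovaries were Runx1-/f, Foxl2+/+ and carried the transgene (Sf1-cre+/Tg). The Foxl2 KO ovaries (Runx1+/f, Foxl2-/-, Sf1-cre+/+) and the double knockout or DKO ovaries (Runx1-/f, Foxl2-/-, Sf1-Cre+/Tg) shared the estimate of the spread and, where named, served as a second pair. Every group thus had a floxed Runx1 allele, and all came from crosses on a mixed strain background. Sf1-cre drives Cre recombinase from regulatory sequence of Nr5a1 (SF1), so it acts in somatic cells of the gonad and not in germ cells, endothelium or blood, which in Runx1 KO ovaries had 1 null and 1 floxed allele. In each pair only 1 group, Runx1 KO or DKO, carried Cre. In both pairs the effect of the transgene and that of Runx1 loss thus cannot be told apart.

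RUNX1 is a DNA-binding transcription factor that pairs with CBFB and is best known for its part in making blood stem cells. In the fetal ovary it is made in pre-granulosa cells, the somatic cells that later surround each oocyte to form a follicle and that also depend on FOXL2. Sertoli cells are their counterpart in the testis. The comparison asks which transcripts of the newborn ovary depend on Runx1.

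Levels are the deposited linear intensities of Affymetrix 430 2.0 arrays, in arbitrary units with a trimmed mean of 500.0 in each array. Differences are on the log2(intensity + 16) scale, with 1 probe set for each of 18193 genes, and are given with the moderated standard error (SE) and the Benjamini-Hochberg adjusted p of limma, a linear model with pooled spread. Each ovary was 1 sample and the number of ovaries, 4 in each group, limited the precision. In bulk RNA, fewer cells of a type and less RNA per cell cannot be told apart. Foxl2, the defining pre-granulosa gene, read 2774 to 4241 in control and 2641 to 3585 in Runx1 KO ovaries, with a log2 difference of -0.21 ± 0.20 (adjusted p = 0.846). Without control 4, its lowest control, it was at -0.34 (0.912). The groups then no longer overlapped, but by a very narrow margin, at 3588 in control 1 and 3585 in Runx1 KO 1. Y-linked genes, which XX ovaries lack, reached a mean log2 level of 6.38 and marked background, leaving out Sry, whose probe set read 8.49. Where 1 of 2 group means lay at or below that level, the fold of a called gene is given as a bound, and where both did, none is given. Every such bound rests on leaving Sry out, and at a background of 8.49 it would be smaller or could not be given.

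Control 4 stood apart. Its erythroid genes, 13 measured, summed to an intensity of 37591, against 643 to 1075 in the other control and 663 to 1027 in the Runx1 KO ovaries. Its granulocyte precursor genes, 12 measured, summed to 44047, against 734 to 1120 in the other control and 452 to 3868 in the Runx1 KO ovaries. The erythroid membrane gene Slc4a1 read 9842 in control 4 and 61.9 to 178 in the other 7 ovaries, and the granulocyte enzyme gene Mpo read 3220 against 4.50 to 20.6. Cell cycle genes were also higher in control 4, at a mean log2 deviation of 0.81, against -0.22 to -0.16 in the other control ovaries. The median log2 difference between Runx1 KO and control was -1.23 over the erythroid genes and -1.16 over the granulocyte genes with control 4, and 0.01 and 0.13 without it. No gene of either list was called with or without it. Calls, and most other differences, are therefore given below with and without control 4.

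**Figure D1:**
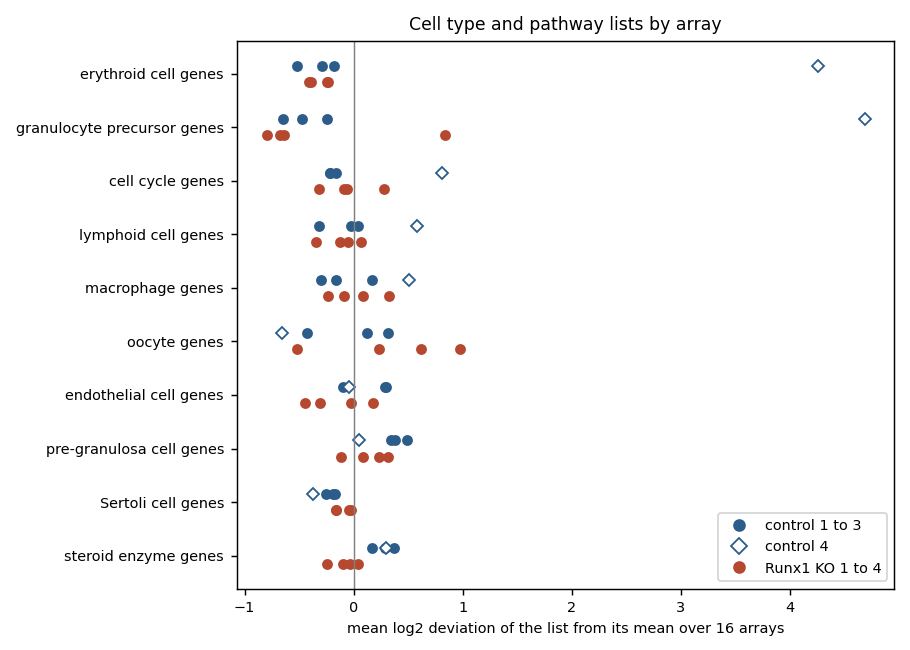
Mean log2 deviation of 10 gene lists (x axis, taken gene by gene against the mean of all 16 arrays) in the 4 control and 4 Runx1 KO ovaries, 1 point for each ovary and an open diamond for control 4. Control 4 lies at 4.26 for erythroid and 4.68 for granulocyte precursor genes, while the other control and Runx1 KO ovaries lie at or below 0.84 for both lists.

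In the probe set used, the Runx1 transcript was lower in every Runx1 KO ovary than in any control ovary, but by very different amounts. The 4 control ovaries read 2238, 2143, 2359 and 2204, and the 4 Runx1 KO ovaries 1702, 1221, 932 and 2127. The highest Runx1 KO ovary, Runx1 KO 4, thus fell just under the lowest control ovary. The log2 difference was -0.64 ± 0.19, which did not pass the test over all genes (limma, adjusted p = 0.398), and -0.65 without control 4 (adjusted p = 0.571). An exact two-sided permutation test of the 8 values gave p = 0.0286, the smallest that 4 against 4 allows. Without Runx1 KO 4 the difference was -0.83 (limma, adjusted p = 0.113). Of 6 Runx1 probe sets, 4 had a lower mean in Runx1 KO ovaries and 2 a higher one, with log2 differences from -0.76 to 0.32. In the next brightest probe set the groups overlapped, at 879 in Runx1 KO 4 and 813 in control 3. Whether each probe set lies inside or outside the deletion is not given in the sources used here, so they check the genotype only in part.

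**Figure D2:**
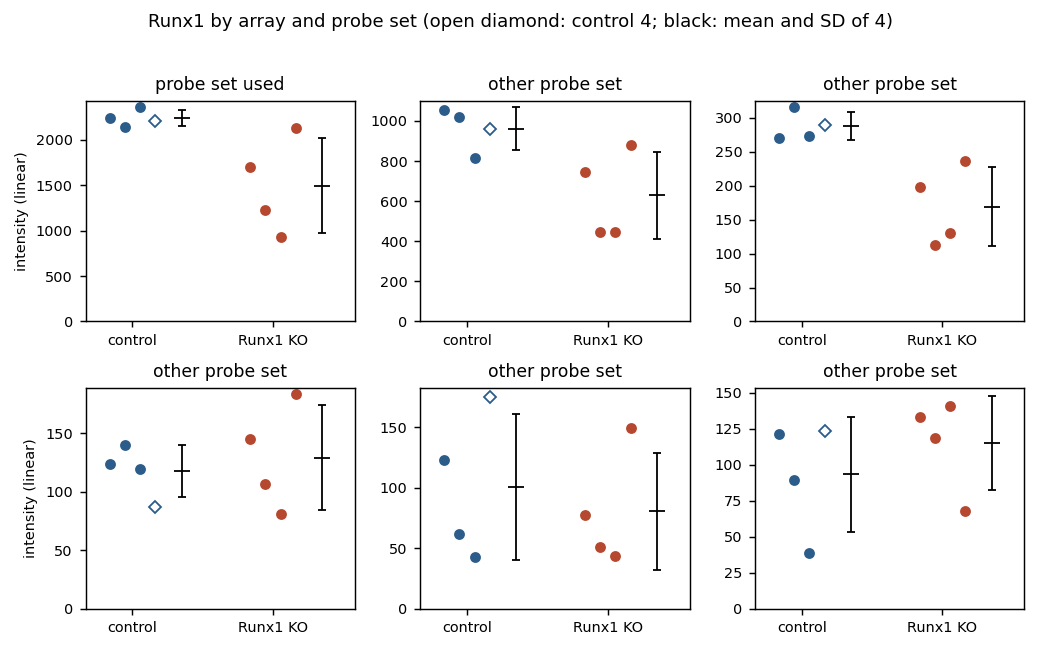
Linear intensity (y axis) of the 6 Runx1 probe sets in control and Runx1 KO ovaries, 1 point for each ovary, with the mean and SD of 4 in black and control 4 as an open diamond. In the probe set used, the Runx1 KO ovaries run from 932 to 2127, below the control range of 2143 to 2359.

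In all, 22 of 18193 genes (0.121%) were called at an adjusted p under 0.05, of which 13 (0.0715%) were lower and 9 (0.0495%) higher in Runx1 KO ovaries. Where both means were above background, falls ran from -0.84 to -3.32 and rises from 0.69 to 1.19 on the log2 scale. At an unadjusted p under 0.05 there were 1335 genes, 840 of them higher. The median difference over all genes was 0.04, and 56.3% of them were above 0. Each of the 22 called genes had 4 Runx1 KO values beyond the 4 control values, as had 2.53% of all genes in the higher and 1.44% in the lower direction. Without control 4, 19 genes (0.104%) were called, 15 lower and 4 higher, and 16 were shared with the 22. The 6 calls lost were Cp, Bves, Fgf9, Msx2, Sgca and Mycn, at adjusted p from 0.0706 to 0.154 in limma, and all 22 kept their direction. Other ovaries mattered more for the count, which was 13 without control 2, 12 without Runx1 KO 1 and 12 without Runx1 KO 4.

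**Figure D3:**
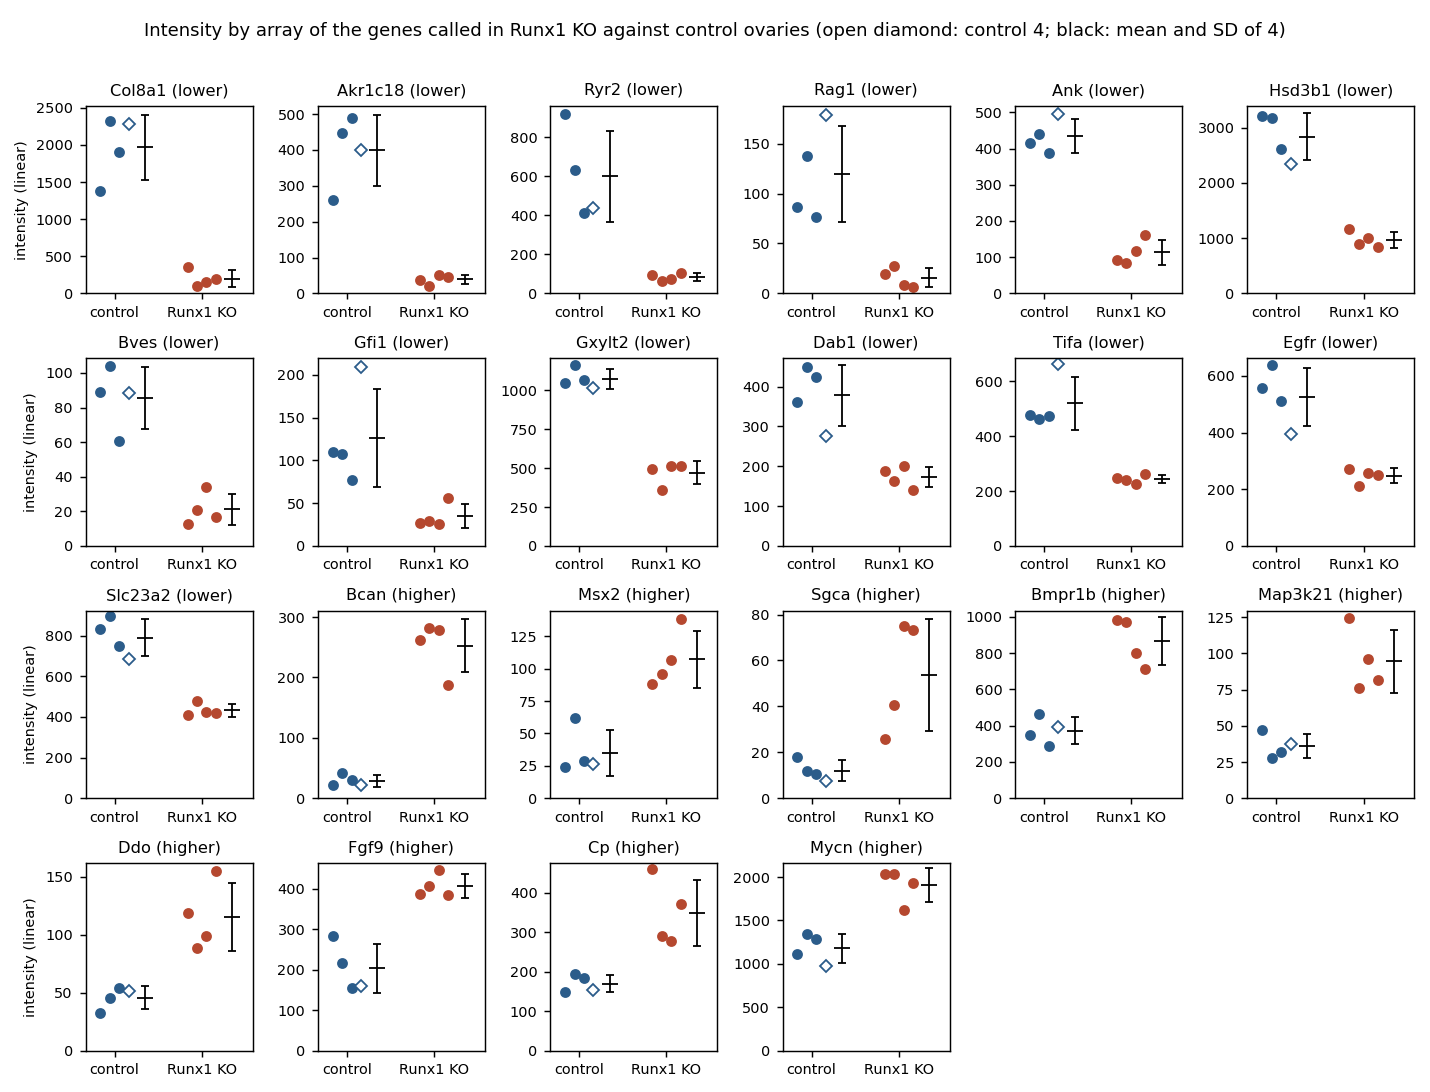
Linear intensity (y axes from 0) of the 22 called genes in control and Runx1 KO ovaries, 1 point for each ovary, with the mean and SD of 4 in black and control 4 as an open diamond. In each panel the 4 Runx1 KO ovaries lie on one side of the 4 control ovaries, as for Col8a1 (97.8 to 360.3 against 1374 to 2318).

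Col8a1, which encodes the alpha 1 chain of the short-chain collagen VIII, fell most. It read 1374, 2318, 1907 and 2282 in the control ovaries and 360.3, 97.8, 147 and 190.2 in the Runx1 KO ovaries. The groups were far apart, and control 4 lay within the range of the other control ovaries. Its mean was 9.99-fold lower (log2 difference -3.32 ± 0.29, limma adjusted p = 0.000143, and -3.24 without control 4). Its other probe sets had log2 differences of -2.62 and -1.26. None of the other 35 collagen chain genes was called, and the median over the 36 was 0.02, beside 0.04 over all genes (0.00 and 0.02 without control 4). Among them Col11a1 had a difference of 0.60 (adjusted p = 0.486), and 0.48 without control 4 (0.795).

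Of the steroid enzyme genes, Akr1c18 and Hsd3b1 fell. Akr1c18 encodes 20-alpha-hydroxysteroid dehydrogenase, which inactivates progesterone. It read 259.9, 447, 489 and 401 in control and 38.0, 21.4, 52.2 and 44.7 in Runx1 KO ovaries. All Runx1 KO values were near background, so the mean was at least 4.86-fold lower (limma adjusted p = 0.000729), and at least 4.81-fold lower without control 4. Hsd3b1 encodes 3-beta-hydroxysteroid dehydrogenase, which makes progesterone from pregnenolone. Its intensity was 3217, 3179, 2606 and 2347 in control and 1160, 896, 1004 and 829.9 in Runx1 KO ovaries. The mean was 2.88-fold lower (log2 difference -1.53 ± 0.20, adjusted p = 0.00382, and -1.61 without control 4). Hsd3b1 has close relatives in the mouse genome, and how far the probes tell them apart was not tested. Of 19 measured steroid enzyme genes these 2 fell and none rose, with a median of -0.12, beside 0.04 over all genes. Without control 4 the same 2 fell, and the median was -0.07. The mean log2 deviation over the list, which includes these 2 genes, was 0.16 to 0.37 in control and -0.24 to 0.04 in Runx1 KO ovaries, without overlap. This mean is therefore not separate from the 2 calls, and the list without them was not tested. Akr1c14, which reduces dihydrotestosterone, read 4162 to 5447 in control and 2589 to 3338 in Runx1 KO ovaries, without overlap (difference -0.70, adjusted p = 0.17, and -0.68 without control 4). Cyp11a1, which makes pregnenolone from cholesterol, had a difference of -0.41 (adjusted p = 0.758, and -0.41 without control 4).

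Ryr2, the gene of a calcium release channel of the endoplasmic reticulum, was 6.0-fold lower. Control ovaries read 918, 635, 414 and 439, and Runx1 KO ovaries 93.5, 61.5, 72.2 and 107. The spread among controls was wide, yet the lowest control was well above the highest Runx1 KO ovary. The log2 difference was -2.58 ± 0.34 (limma adjusted p = 0.00382), and -2.71 without control 4. A second Ryr2 probe set had a log2 difference of -2.34. Ryr2 was the 1 gene called among 23 calcium channel, pump and exchanger genes, whose median was 0.10 with and without control 4, and among 21 pre-granulosa cell genes, a list to which the study's own work on these ovaries contributed, so that its count is not independent evidence. Ryr3 was at 0.82 ± 0.26 (adjusted p = 0.45), and at 0.77 without control 4. Bves, of the membrane proteins with a Popeye domain, read 89.0, 104, 60.5 and 88.7 in control and 12.8, 20.5, 34.0 and 17.0 in Runx1 KO ovaries. It was at least 1.2-fold lower (adjusted p = 0.0223), a call lost without control 4 (0.0725). Its relative Popdc3 read 107 to 225 in control and 42.3 to 122 in Runx1 KO ovaries (adjusted p = 0.418, and 0.499 without control 4).

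A further 5 genes that fell have varied roles. Ank, which encodes a membrane protein that releases pyrophosphate and so limits mineral deposits, read 417, 439, 388 and 497 in control and 91.4, 85.2, 118 and 161 in Runx1 KO ovaries. Its mean was 3.54-fold lower (log2 difference -1.83 ± 0.23, limma adjusted p = 0.00271, and -1.76 without control 4). Gxylt2 encodes an enzyme that adds xylose to O-glucose on EGF repeats such as those of Notch. It read 1051, 1166, 1068 and 1019 in control and 494, 362, 516 and 516 in Runx1 KO ovaries, which is 2.26-fold lower (difference -1.17 ± 0.15, adjusted p = 0.00271, and -1.20 without control 4). None of the other 23 Notch pathway genes was called, with or without control 4. Slc23a2, a sodium-dependent vitamin C transporter gene, was 1.79-fold lower at 408 to 479 against 685 to 896 (difference -0.84 ± 0.12, adjusted p = 0.00793, and -0.91 without control 4). Egfr, the receptor of EGF and related ligands, stood at 211 to 272 against 394 to 640.1, or 2.04-fold lower (difference -1.02 ± 0.19, adjusted p = 0.0438). Dab1, an adaptor in reelin signalling, was 2.07-fold lower at 142 to 199.7 against 277 to 449 (difference -1.05 ± 0.19, adjusted p = 0.0438). For Egfr and Dab1 control 4 was the lowest control, and without it the differences were -1.15 and -1.19.

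Of the genes known from blood and immune cells, 3 fell. Rag1, which encodes part of the recombinase of lymphocyte receptor genes, read 86.2, 138, 76.2 and 179 in control and 19.6, 27.6, 8.77 and 6.81 in Runx1 KO ovaries. It was at least 1.56-fold lower (limma adjusted p = 0.0128), and at least 1.36-fold lower without control 4 (0.0438). Gfi1, a zinc finger repressor of blood cell precursors, read 109.7, 108, 76.9 and 209.8 in control and 27.3, 29.5, 26.0 and 56.1 in Runx1 KO ovaries, at least 1.61-fold lower (adjusted p = 0.0187), and at least 1.36-fold without control 4 (0.0231). Control 4 was the highest ovary for both, but both groups also stood apart without it. Tifa, an adaptor of TRAF6 signalling, read 476, 464, 475 and 662 in control and 247, 242, 224 and 262 in Runx1 KO ovaries. Its mean was 2.04-fold lower (log2 difference -1.03 ± 0.14, adjusted p = 0.00382, and -0.91 without control 4).

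Rag1 and Gfi1 were the only genes called among 18 measured genes known as RUNX1 targets in blood cells, with and without control 4. The median over this list was -0.05, and 0.07 without control 4. Lymphoid cell genes, 12 measured with 0 called, summed to 462 to 716 in controls 1 to 3, to 1295 in control 4 and to 447 to 731 in Runx1 KO ovaries, and 7 of them were below background in both groups. Their part in the difference of Rag1 was not tested.

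The core sequence that RUNX proteins bind, TGTGGT or TGCGGT on either strand, was looked for in the 250 bases before the start of each called gene. Of the 12 genes called lower with a promoter entry, 5 held it, and of the 9 called higher, 0 did. Among 14452 genes on the arrays with an entry, the share was 20.5%. The sequences of 4 of the 5, credited to RefSeq and the build GRCm38.p6, are shown since these genes fell. Capitals mark the match and the gene starts after the last base. Col8a1 is at chr16:57754738-57754987 on the minus strand, Rag1 at chr2:101649533-101649782 on the minus strand, Gxylt2 at chr6:100704484-100704733 on the plus strand, and Tifa at chr3:127789622-127789871 on the plus strand. Tifa has a second listed start, whose 250 bases held no match and are not shown. A match is a description of letters and not a bound site.
Col8a1: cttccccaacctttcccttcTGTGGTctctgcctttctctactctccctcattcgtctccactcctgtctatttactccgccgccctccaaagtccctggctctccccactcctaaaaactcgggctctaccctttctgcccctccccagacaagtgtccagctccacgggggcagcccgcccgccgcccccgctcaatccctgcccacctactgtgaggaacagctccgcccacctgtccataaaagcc
Rag1: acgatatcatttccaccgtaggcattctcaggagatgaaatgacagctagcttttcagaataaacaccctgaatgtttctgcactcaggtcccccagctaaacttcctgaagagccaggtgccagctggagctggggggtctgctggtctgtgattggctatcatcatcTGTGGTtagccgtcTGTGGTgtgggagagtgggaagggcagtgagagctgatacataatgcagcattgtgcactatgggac
Gxylt2: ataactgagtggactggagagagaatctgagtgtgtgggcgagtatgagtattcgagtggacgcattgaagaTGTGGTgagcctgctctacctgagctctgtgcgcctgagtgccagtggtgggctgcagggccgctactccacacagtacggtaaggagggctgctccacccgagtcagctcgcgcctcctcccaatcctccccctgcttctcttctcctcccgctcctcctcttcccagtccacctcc
Tifa: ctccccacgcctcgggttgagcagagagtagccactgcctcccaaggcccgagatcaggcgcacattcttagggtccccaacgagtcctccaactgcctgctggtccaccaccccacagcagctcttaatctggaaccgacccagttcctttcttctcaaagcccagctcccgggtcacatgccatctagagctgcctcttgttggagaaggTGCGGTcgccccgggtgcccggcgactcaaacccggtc
The match lay 230 bases before the start in Col8a1, 81 and 67 bases before it in Rag1, 178 in Gxylt2 and 38 in Tifa. Dab1 was the fifth gene.

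Among the genes that rose, Bcan had the largest difference. It encodes brevican, a chondroitin sulfate proteoglycan of the lectican family known from brain matrix. The intensity was 21.4, 41.8, 30.9 and 22.1 in control and 262, 282, 278 and 188 in Runx1 KO ovaries. Control values were at background, so the mean was at least 3.18-fold higher (limma adjusted p = 0.00271, and 0.00904 without control 4). The probe set is of a kind that can cross-hybridise, and the other Bcan probe set had a difference of 0.92 ± 0.35, which was not called. Bcan was the 1 gene called among 24 proteoglycan and link protein genes, with a median of -0.01 (-0.09 without control 4). Sdc2, a heparan sulfate proteoglycan gene, was at 0.45 ± 0.13 (adjusted p = 0.374), and at 0.35 without control 4.

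Of the BMP, activin and TGF-beta genes, Bmpr1b and Msx2 rose. Bmpr1b, a type I receptor of bone morphogenetic proteins (BMPs), read 348, 462, 287 and 393 in control and 980.2, 970.2, 800.1 and 715 in Runx1 KO ovaries. Its mean was 2.28-fold higher (log2 difference 1.19 ± 0.17, limma adjusted p = 0.00793, and 1.22 without control 4), and its other probe sets had differences of 0.94 and 1.04. Msx2, a homeobox gene that responds to BMPs, read 23.8, 61.6, 28.9 and 26.4 in control and 88.3, 95.9, 106 and 139 in Runx1 KO ovaries. It was at least 1.46-fold higher (adjusted p = 0.0438), a call lost without control 4 (0.147). Its other probe set had a difference of 0.48 ± 0.32 with overlapping groups and was not called. Bmpr1b and Msx2 were 2 of 45 genes measured, none of which fell, with a median of 0.04 (-0.04 without control 4). Fst, the activin antagonist follistatin, read 1814 to 2452 in control and 707 to 1309 in Runx1 KO ovaries, without overlap, and its difference of -1.18 ± 0.34 did not pass the test (adjusted p = 0.372, and 0.565 without control 4).

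Fgf9, a fibroblast growth factor gene required for testis development, read 285, 217, 155 and 160.4 in control and 387, 407, 448 and 384 in Runx1 KO ovaries. It was 1.97-fold higher (log2 difference 0.98 ± 0.17, limma adjusted p = 0.0438), and 0.88 without control 4, where it was not called (0.131). It was the 1 call among 23 Sertoli cell genes, whose median was 0.16 (0.12 without control 4), and among 21 FGF pathway genes, whose median was -0.02 (-0.04 without control 4). Of the Sertoli genes 14 were above 0 and 9 below, beside 56.3% of all genes above 0. At an unadjusted limma p under 0.05 there were 3 higher and 3 lower, beside 840 and 495 of all 18193 genes. Inhbb was among the lower ones, at -0.56 (adjusted p = 0.585, and -0.69 without control 4). The mean log2 deviation over the Sertoli list, which includes Fgf9 and Nr5a1, was -0.369 to -0.167 in control and -0.165 to -0.025 in Runx1 KO ovaries. The groups lay next to each other without overlap, but this mean is not separate from the call of Fgf9. The list without Fgf9 was not tested. The Sertoli gene Sox9 had a difference of 0.12 (0.16 without control 4) with overlapping groups, and mean Amh and Dmrt1 levels were below background in both. Dhh, the hedgehog ligand of Sertoli cells, was at 34.1 to 78.2 in control, with the mean below background, and 68.5 to 131 in Runx1 KO ovaries (adjusted p = 0.241, and 0.348 without control 4). Nr5a1 was just outside the threshold, at 570.1 to 773 in control and 858 to 1324 in Runx1 KO ovaries (difference 0.77 ± 0.15, adjusted p = 0.0718, and 0.75 without control 4). The Sf1-cre transgene, present in the Runx1 KO but not in the control group, is built on Nr5a1 sequence, and its share in this value cannot be told apart.

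The remaining rises were of genes with varied roles. Mycn, a MYC family transcription factor gene, read 978 to 1346 in control and 1626 to 2039 in Runx1 KO ovaries, or 1.61-fold higher (log2 difference 0.69 ± 0.12, limma adjusted p = 0.0438). Its other probe sets, not called, had differences of 0.43 and 0.07, the latter with readings of 2.40 to 9.43. Cp, the copper-binding plasma protein ceruloplasmin, was 1.94-fold higher at 277 to 458 against 149.7 to 193 (difference 0.95 ± 0.15, adjusted p = 0.0196). Ddo, which encodes D-aspartate oxidase, was at least 1.55-fold higher at 88.3 to 155 against 32.4 to 54.1 (adjusted p = 0.0259). Map3k21, a kinase of the mixed lineage family, was at least 1.31-fold higher at 75.9 to 124 against 27.6 to 46.8 (adjusted p = 0.0136). Its other probe set had a difference of 0.17 ± 0.26 with overlapping groups and was not called. Ddo and Map3k21 were still called without control 4, at 0.0483 and 0.0335, while Mycn (0.131) and Cp (0.0706) were not. Sgca, a sarcoglycan gene known from muscle, read 25.9 to 75.1 against 7.36 to 18.1, with both means below background, so no fold is given (adjusted p = 0.0438, and 0.154 without control 4).

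Without control 4, 3 further genes were called lower. Wdr46, a ribosome biogenesis gene, read 1143 in control 4, 1537 to 1757 in the other controls and 752 to 1017 in Runx1 KO ovaries, with a log2 difference of -0.74 with control 4 and -0.87 without it (limma adjusted p = 0.106 and 0.0335). Arap2, a regulator of ARF signalling, read 790.02 in control 4, 1253 to 1717 in the other controls and 627 to 818 in Runx1 KO ovaries (difference -0.78 and -0.999, adjusted p = 0.289 and 0.0441). Tpsab1, a mast cell tryptase gene, read 9.27 in control 4, 48.9 to 54.5 in the other controls and 3.28 to 7.23 in Runx1 KO ovaries, all below background. Control 4 was the lowest control for each of the 3. Beside Tpsab1, 7 other mast cell genes, chosen after its values were seen, all had differences below 0 with and without control 4, with a median of -0.96 (-0.88 without control 4) and 0 calls. The mast cell protease gene Cpa3, for example, read 351 to 802 in control and 121 to 452 in Runx1 KO ovaries (difference -1.11 ± 0.38, adjusted p = 0.518, and -1.03 without control 4). The mean log2 deviation over the 7 genes was 0.07 to 1.01 in control and -1.14 to 0.09 in Runx1 KO ovaries, which overlap, and the part of mast cells in the difference was not tested.

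**Figure D4:**
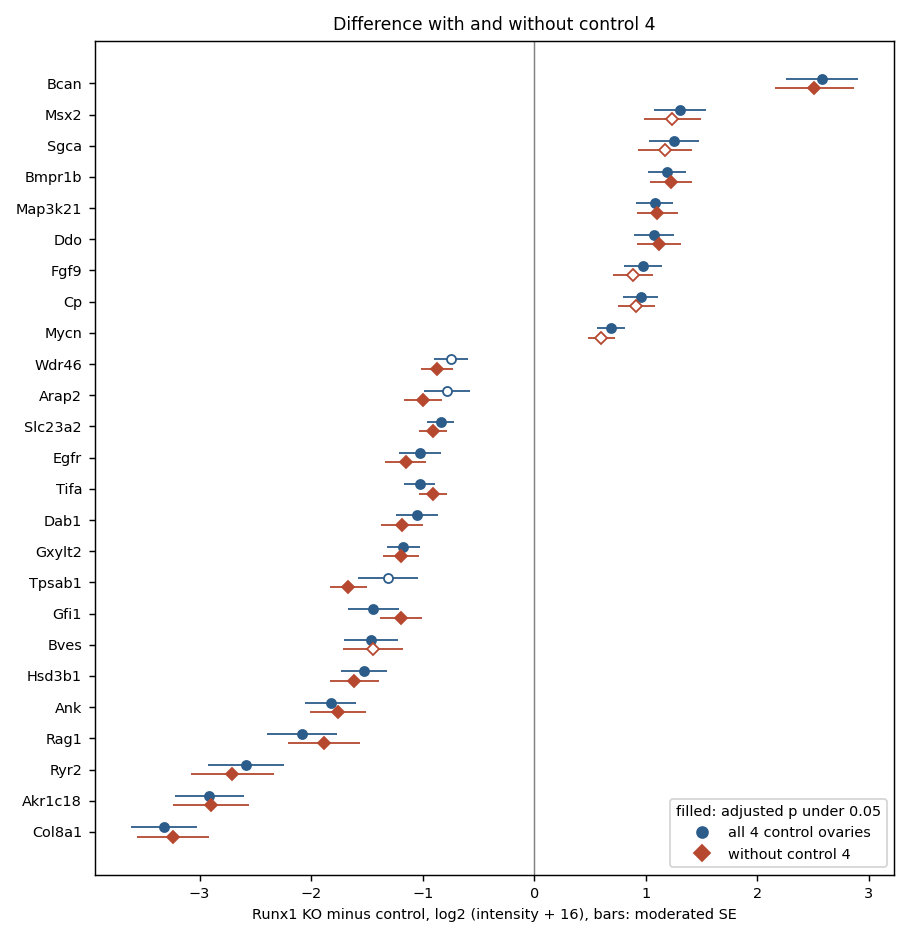
Runx1 KO minus control log2 difference (x axis, bars are 1 moderated SE) of the 25 genes called with all 4 control ovaries (circles) or without control 4 (diamonds), filled where adjusted p is under 0.05. Each gene keeps its side of 0, and 16 genes are filled in both. Sgca and Tpsab1 were below background in both groups.

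Leaving out each of the 8 ovaries in turn, 10 of the 22 genes were called in all 8 fits. They were Col8a1, Akr1c18, Ryr2, Hsd3b1, Ank, Gxylt2, Tifa, Slc23a2, Bcan and Bmpr1b. Map3k21 and Rag1 were called in 6 of the fits, with highest adjusted p of 0.0584 without Runx1 KO 1 and 0.0613 without Runx1 KO 4. Cp and Ddo were called in 4, up to 0.0894 without Runx1 KO 4 and 0.0977 without Runx1 KO 1. Gfi1 was called in 3 fits (up to 0.0845 without Runx1 KO 1) and Bves in 2 (up to 0.0977, also without Runx1 KO 1). Egfr and Dab1 (0.172 without control 2), Fgf9 (0.14 without Runx1 KO 3), Msx2 (0.147) and Sgca (0.154, both without control 4) and Mycn (0.159 without Runx1 KO 1) were called in 1 fit. Of the 22 genes, 14 had further probe sets, 33 in all, and 31 of these had the same direction. The other 2 were of Egfr, at 0.67 and 0.01. With every probe set tested on its own, only 4 of the 33, from 4 genes, were called in the same direction.

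Just inside the threshold, Fgf9, Msx2, Sgca, Mycn, Egfr and Dab1 were the last genes called, at an adjusted p of 0.0438. Just outside it were Celf5 and Scn10a at 0.0515, followed by Epha4, Nr5a1, Slc18a2, Ermp1, Vdr and B3gnt3 at 0.0718. Vdr, the vitamin D receptor gene, read 88.3 to 106 in control and 6.09 to 48.9 in Runx1 KO ovaries. Slc18a2, a vesicular monoamine transporter gene, read 1136 to 1208 in control and 425 to 763 in Runx1 KO ovaries. Akr1c19, a relative of Akr1c18, read 232 to 389 in control and 106 to 179.6 in Runx1 KO ovaries (adjusted p = 0.0729). In all 3 the groups did not overlap, as in 1.44% of all genes in the lower direction.

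Among the other cell type lists, calls were few. Of 21 pre-granulosa cell genes 1 fell and none rose, with a median of -0.09 (-0.16 without control 4). Wnt4, a signal of ovary determination, was at -0.10 ± 0.21 (-0.22 without control 4), and Nr5a2 at -0.70 (adjusted p = 0.545), or -0.82 without control 4. Nr0b1 went the other way, at 0.51 (limma adjusted p = 0.558, and 0.55 without control 4). Of the 21 genes 8 were above 0 and 13 below, beside 56.3% of all genes above 0. The mean log2 deviation over the list, which includes the called gene Ryr2, was 0.34 to 0.49 in controls 1 to 3 and 0.05 in control 4. In Runx1 KO ovaries it was -0.12 to 0.31, and in this mean the groups overlapped through control 4. Ryr2 differed by -2.58, so this mean is not separate from its call, and the list without Ryr2 was not tested. None of the 21 oocyte genes was called, with 17 above 0 and a median of 0.30 (0.21 without control 4). Gdf9, an oocyte growth factor gene, read 174 to 541 in control and 317 to 1726 in Runx1 KO ovaries (difference 1.22 ± 0.52, adjusted p = 0.625, and 0.99 without control 4). None of 16 endothelial cell genes was called, and 15 were below 0, with a median of -0.22 (-0.30 without control 4). Cdh5, which encodes the endothelial cadherin, read 556 to 1125 in control and 463 to 732 in Runx1 KO ovaries (difference -0.53, adjusted p = 0.605, and -0.70 without control 4). In the oocyte and endothelial lists the groups overlapped in the mean deviation of the ovaries with and without control 4.

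The RUNX family and its cofactors, 11 genes measured, held 0 calls and had a median of -0.12 with and without control 4. Runx1t1, a corepressor gene, read 954 to 1157 in control and 679.7 to 1105 in Runx1 KO ovaries (difference -0.47 ± 0.18, adjusted p = 0.578, and -0.45 without control 4). Retinoic acid genes, 17 measured, had 0 calls and a median of 0.18 (0.13 without control 4). Aldh1a2 and Aldh1a3, which make retinoic acid, had 4 Runx1 KO values above the 4 control values, as had 2.53% of all genes. They read 3111 to 3789 against 2170 to 2734 and 303 to 645 against 186 to 294 (adjusted p = 0.292 and 0.289, and 0.565 and 0.299 without control 4). Urogenital transcription factor genes, 24 measured, had 1 call, Msx2, and a median of 0.10 (0.12 and no call without control 4). Of genes within 20 Mb of Runx1 on chromosome 16, 149 were measured and 0 were called, and 6.71% had an unadjusted p under 0.05, beside 7.34% of all genes.

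The loss of Runx1, again together with the Sf1-cre transgene, could be read in other ovaries as the difference of DKO and Foxl2 KO. This pair shares no array with the comparison above but does share its estimate of the spread. Only its DKO ovaries carried the transgene, so its effect and that of Runx1 loss cannot be told apart here either. There 11 genes (0.0605%) were called. Of the 22 genes, 6 were at or below background in both of these groups and could not be read, namely Col8a1, Akr1c18, Rag1, Gfi1, Bves and Sgca. Of the other 16, 15 had the same direction, and 12 of these had an unadjusted p under 0.05. Over all genes, those below background included, 51.2% had the same direction, and 978 of 18193 had an unadjusted limma p under 0.05. The 22 genes were picked under the shared spread, so their p-values in this pair are not fully separate from their calls. The 5 called there too were Ank (log2 difference -1.40), Gxylt2 (-0.86), Slc23a2 (-0.89), Ryr2 (at least 4.59-fold lower in DKO) and Msx2 (at least 1.78-fold higher in DKO). Bcan was at 1.41 (adjusted p = 0.165) and Hsd3b1 at -0.33 (0.995). Map3k21 was the 1 gene with the other direction, at -0.32, and was not called. Col8a1 was at least 23.3-fold lower in Foxl2 KO ovaries than in the same control ovaries, so a further fall with the loss of Runx1 could not be seen.

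**Figure D5:**
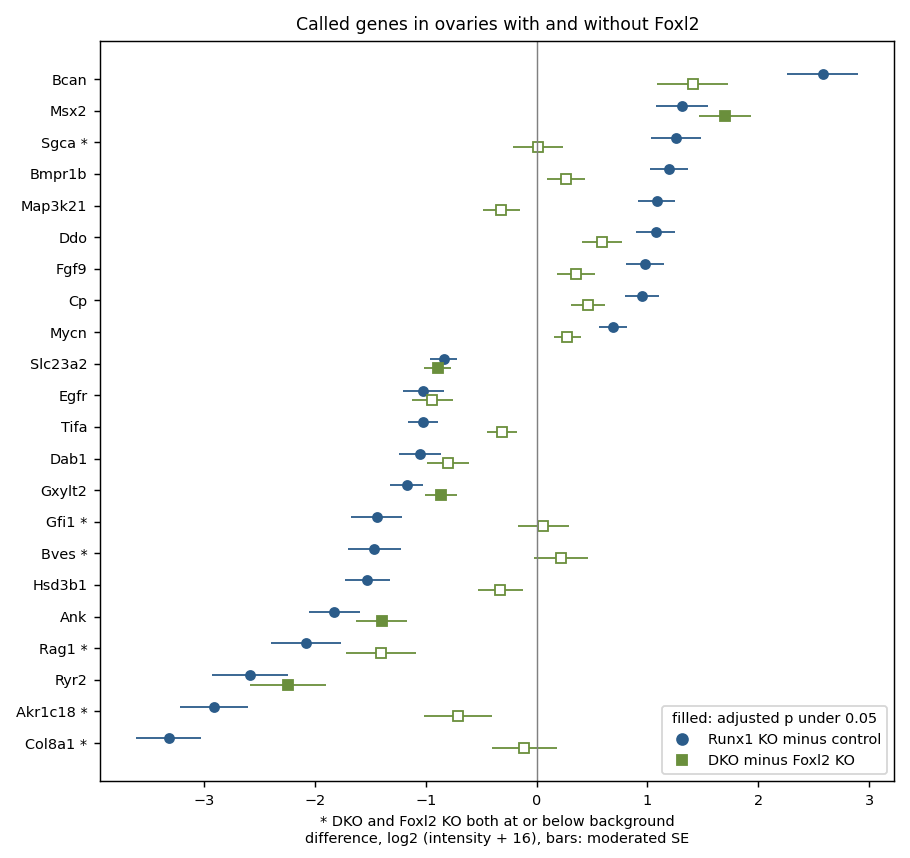
Log2 difference (x axis, bars are 1 moderated SE) of the 22 called genes between Runx1 KO and control (circles) and between DKO and Foxl2 KO (squares), filled where adjusted p is under 0.05. Ryr2, Ank, Gxylt2, Slc23a2 and Msx2 are filled in both, and the 6 genes with an asterisk were at or below background in DKO and Foxl2 KO ovaries, where their squares could not be read.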

How the data were processed

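RNA of single newborn ovaries (Picopure) was amplified from 50 ng and hybridised by the authors to Affymetrix 430 2.0 arrays. The deposited values are linear intensities of 45101 probe sets, made with Expression Console 1.2 per the labels. Each array has the same mean after trimming 2% at each end, and the summarisation algorithm is not given in the sources used here. Array medians ran from 134 to 177.

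From these, log2(intensity + 16) was taken. Probe sets of several genes (932) or none (9160) were left out, and the probe set with the highest mean over the 16 arrays stood for a gene. The 4 group means were fitted with limma 3.58.1 (lmFit, eBayes) in R 4.3.3, with 12 residual degrees of freedom. The tests were two-sided, adjusted over 18193 genes by the Benjamini-Hochberg method, and called under 0.05. The study's methods used RMA log2 values and a one-way analysis of variance, which is an alternative here. The study describes its controls as littermates, but which of these ovaries shared a litter is not given, so p-values measure the spread between these ovaries.

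Genes named were all those called, the 10 next to the threshold, genes named by the study and the leading members of 39 lists. Members and lists were chosen with earlier results of these data known, and the mast cell list, the choice to leave Sry out of the background and the scaling check of the DKO comparison after values were seen. Alternatives were the offset, scaling, probe set rule, prior, array weights, replicate block, samples and left-out ovaries. The method was tested on simulated data. Replicate numbers did not pair the ovaries (residual correlations from -0.0401 to -0.00869).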

Additional observations from a re-analysis of the deposited data

Results flagged for a closer look

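In 248 groups of 4 ovaries, 21 had 1 ovary far from the others by Dixon's ratio of gap to range (above its 95% critical value), and chance gives about 1 in 20. Control 4 was the far ovary for the erythroid (0.929), granulocyte (0.924) and cell cycle lists (0.948), and for Ms4a3 (0.872), Tifa (0.929) and Tpsab1 (0.920). Control 1 was far from its group for Nr0b1 (0.878), Sox9 (0.897), Vcan (0.967) and the immediate early list (0.845), control 2 for Popdc3 (0.849) and the FGF list (0.881), and control 3 for Runx1t1 (0.944). Runx1 KO 2 was far for Casq2 (0.903), Gxylt2 (0.877), Wif1 (0.857) and the smooth muscle list (0.854), Runx1 KO 3 for Plvap (0.846) and the granulocyte list (0.901), and Runx1 KO 4 for Gfi1 (0.851) and Sdc2 (0.866). In Casq2, which encodes a calcium-binding protein of muscle, Runx1 KO 2 read 852, against 119 to 145 in the other Runx1 KO ovaries. For Col8a1 the limma interaction of both losses was 3.21 on the log2 scale (adjusted p = 0.0212), but its means in Foxl2 KO and DKO ovaries were both below background, so no difference in response can be read from it.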

How the results depend on the processing

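All 22 called genes kept their direction in every fit, and 5 of them (Akr1c18, Ryr2, Hsd3b1, Ank and Col8a1) were called in every fit that tested them. The count was 13 when each gene was the mean of its probe sets, 13 for genes above the median level, 13 with the methods' analysis of variance after adjustment, 6 with only the 8 arrays of both groups, and 12 without control 4 and Runx1 KO 4, against 19 without control 4 alone. At the methods' own threshold, an unadjusted p and 1.5-fold, it was 510. Leaving out each ovary gave 12 to 21 genes. With the replicate block it was 15, of which 14 were shared with the 22, and no pairing of ovaries by replicate number was found. An offset of 1 gave 15 genes and one of 50 gave 27. Runx1 was at -0.83 to -0.44 when each ovary was left out, and 2 of its probe sets reversed its direction (0.32 and 0.0827). Among uncalled genes, leaving out 1 ovary moved Pla2r1 between -0.22 and 0.23, Sox9 between -0.0379 and 0.21 and Wnt4 between -0.26 and 0.0504, which changed their sign, and Pla2r1 was at -0.24 without control 4 and Runx1 KO 4. Of 39 list medians, 6 moved by more than the spread between ovaries (taken without control 4) when control 4 was left out, the erythroid, granulocyte, duct and rete, cell cycle, RUNX1 target and basement membrane lists, and 1, the Sertoli list, under quantile normalization. Counting only genes above background in DKO or Foxl2 KO ovaries, chosen after seeing the data, left 15 with the same direction, against 19 of all 22. The cause of these shifts was not tested. Of all genes, 4964 were at or below background in both groups, where differences could not be read. Sgca was among them, although it is counted in the 22 called genes.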

Other observations

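Genes called between DKO and Foxl2 KO ovaries but not between Runx1 KO and control were 6, chosen after their values were seen. Ermp1, which encodes a peptidase of the endoplasmic reticulum, had log2 differences of -1.26 between DKO and Foxl2 KO and -0.68 between Runx1 KO and control (limma adjusted p = 0.00121 and 0.0718). Nr5a1, on whose sequence the Sf1-cre transgene is built, was at 0.96 and 0.77. Osr2, a zinc finger gene of the urogenital mesoderm, was at 1.76 and 0.93. Elovl6, a fatty acid elongase gene, was at 1.43 and 0.14, and Prr5l, of the mTORC2 complex, at -1.36 and -0.30. Slc8a3, which encodes a sodium and calcium exchanger, had a mean log2 level of 8.97 in Foxl2 KO ovaries and levels next to background elsewhere (6.28 in DKO, 6.19 in control and 6.50 in Runx1 KO ovaries).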
